A study of Mus musculus with 4 samples.

Results

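The 3 TGF-beta ligand genes (Tgfb1, Tgfb2, Tgfb3), the 3 genes of their receptors (Tgfbr1, Tgfbr2, Tgfbr3) and the 4 genes of latent TGF-beta binding proteins (Ltbp1, Ltbp2, Ltbp3, Ltbp4) were taken from the deposited expression table by their gene symbols. All 10 were found among its 24441 genes, each once, and their loci overlapped the annotated gene of the same name. The skin came from 2 WT and 2 GSDMD KO mice of the C57BL/6 strain, all labelled as female and 8 weeks old. Both genotypes received bleomycin (BLM), an antitumour antibiotic used to induce skin fibrosis in mice, by injection under the skin on alternate days until day 28. GSDMD KO mice were made by injecting Cas9 mRNA and a guide RNA into C57BL/6 eggs, and Gsdmd encodes gasdermin D, the pore-forming protein of pyroptosis. No saline-treated library was analysed here, so the values compare genotypes under BLM and do not show what BLM itself did. The labels name no individual mice, and each library was treated as 1 mouse, so p-values measure the spread between libraries, which may be technical in part.

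TGF-beta is secreted as an inactive complex in which the mature cytokine stays bound to its own propeptide. Latent TGF-beta binding proteins attach to that propeptide and anchor the complex to fibrillin and fibronectin in the matrix, and integrins or proteases release the cytokine. The free ligand binds the type II receptor, which recruits and phosphorylates the type I receptor, and Smad proteins carry the signal to the nucleus. The pathway is known in skin as a main driver of collagen synthesis by fibroblasts and as a brake on keratinocyte growth.

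The promoters of the ligand pair Tgfb1 and Tgfb2 and of the signalling receptor pair Tgfbr1 and Tgfbr2 are printed because these 4 genes split into a pair that differed between the GSDMD KO libraries and a pair that did not. Each sequence holds the 250 bases before and the 50 bases after the RefSeq start (first listed start where there are several, RefSeq build GRCm38.p6), and each was placed on mm9, the build of the deposited table, by its single exact match there. Capitals mark the GC box with the letters GGGCGG, the box CCAAT and the TATA box with the letters TATAAA, on either strand.
Tgfb1 (chr7:26471771-26472070, plus strand): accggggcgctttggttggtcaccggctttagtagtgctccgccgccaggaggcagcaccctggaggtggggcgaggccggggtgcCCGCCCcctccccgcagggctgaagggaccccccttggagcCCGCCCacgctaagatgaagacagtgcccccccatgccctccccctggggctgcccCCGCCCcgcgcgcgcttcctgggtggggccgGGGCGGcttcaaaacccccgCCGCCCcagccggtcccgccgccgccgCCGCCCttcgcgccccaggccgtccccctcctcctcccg
Tgfb2 (chr1:188529819-188530118, minus strand): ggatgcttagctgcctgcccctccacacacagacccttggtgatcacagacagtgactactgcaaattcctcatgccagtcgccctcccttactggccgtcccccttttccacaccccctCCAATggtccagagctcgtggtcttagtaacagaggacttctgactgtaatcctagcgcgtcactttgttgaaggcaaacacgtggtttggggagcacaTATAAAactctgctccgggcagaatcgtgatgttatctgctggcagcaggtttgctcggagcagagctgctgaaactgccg
Tgfbr1 (chr4:47365844-47366143, plus strand): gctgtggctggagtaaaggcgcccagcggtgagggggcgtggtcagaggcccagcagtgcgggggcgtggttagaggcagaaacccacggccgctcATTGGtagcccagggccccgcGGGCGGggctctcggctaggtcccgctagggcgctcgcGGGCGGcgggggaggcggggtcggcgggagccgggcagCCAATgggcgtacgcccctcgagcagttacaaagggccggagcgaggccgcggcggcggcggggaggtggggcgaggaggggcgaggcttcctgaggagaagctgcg
Tgfbr2 (chr9:116084432-116084731, minus strand): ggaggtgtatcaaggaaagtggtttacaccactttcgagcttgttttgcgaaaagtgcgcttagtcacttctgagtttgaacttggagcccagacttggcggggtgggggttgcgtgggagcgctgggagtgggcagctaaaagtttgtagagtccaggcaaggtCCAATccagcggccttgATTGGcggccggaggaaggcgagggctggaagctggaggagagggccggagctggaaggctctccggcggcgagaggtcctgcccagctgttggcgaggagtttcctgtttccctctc
The Tgfb1 promoter is 77% G and C and holds 6 GC boxes, no CCAAT box and no TATA box, whereas the Tgfb2 promoter is 54.3% G and C and holds 1 TATA box, 1 CCAAT box and no GC box. The first Tgfbr1 promoter holds 2 GC boxes and 2 CCAAT boxes, and that of Tgfbr2 holds 2 CCAAT boxes and no GC box. Of 32851 RefSeq mouse promoters of the same length, 35.7% hold a GC box, 37.4% a CCAAT box and 13.6% this TATA box. The AP-1 site TGACTCA (5.2% of all promoters), the cyclic AMP response element TGACGTCA (1.79%), the E-box CACGTG (7.15%) and the palindromic Smad-binding element GTCTAGAC (0.213%) were searched as well, and of these the 4 printed promoters hold only 1 E-box, in that of Tgfb2. The table holds promoters of 8 members, and Tgfb3 and Tgfbr3 are named only.

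The table holds FPKM values, which are fragments scaled to transcript length and library size, and the libraries sum to 448544 to 462251 FPKM. From the steps between the values of low genes, the libraries were estimated to hold 12800000 to 17400000 fragments. On the longest coding transcript of each gene, at least 162 fragments then stood behind every value of the 10 genes, a counting error of at most 7.86%. Gsdmd had 14.05 and 18.2 FPKM in the WT libraries against 3.53 and 2.26 FPKM in KO replicates 1 and 2, in the order that the genotypes require. Keratinocyte markers, 9 genes led by keratins and all above 0, summed to 3582 to 10833 FPKM and skeletal muscle markers to 12792 to 20805 FPKM, so keratinocyte and muscle RNA was present in all 4 libraries. The GSDMD KO libraries differed widely from each other. In KO replicate 2, 10 of 10 macrophage markers, 9 of 10 fibroblast markers and 8 of 8 endothelial markers were lower than in any other library. Their summed levels there were 94.7 FPKM against 875 to 2224 FPKM for macrophages, 39.1 FPKM against 251 to 546 FPKM for fibroblasts and 18.2 FPKM against 104 to 166 FPKM for endothelium. KO replicate 2 also held 1.78 FPKM over 4 Y-linked genes that had 0 FPKM in each of the other 3, against the label female. In KO replicate 1, 11 of 12 hair follicle markers were higher than in any other library.

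No difference between GSDMD KO and WT skin in the 10 genes was larger than the spread between libraries allowed the test to call. With limma on log2(FPKM + 1), 0 of the 10 passed an adjusted p under 0.05 with an absolute log2 fold change above 1, where 0% of the 13027 tested genes passed. The knocked-out gene Gsdmd did not pass either (log2 fold change -2.14, SE 0.29, adjusted p = 0.248 by limma). The absence of calls among the 10 therefore does not show that they were unchanged. At an unadjusted p under 0.05, 0 of the 10 were higher and 0 were lower in KO mice, against 10.9% and 6.22% of all tested genes. The smallest unadjusted p was 0.177, and adjusted p-values ran from 0.435 to 0.996 by limma. A positive log2 fold change was found in 3 genes and a negative one in 7, and the median was -0.11 against 0.11 for all tested genes. The median of the 10 was -0.35 without KO replicate 1, -0.29 without WT replicate 2, -0.05 without KO replicate 2 and -0.04 without WT replicate 1. The KO libraries were both under the WT pair in 2 of the 10 genes, Tgfb3 and Ltbp2, and above them in 0, against 20.5% and 35.3% of all tested genes. Standard errors (SE) of the log2 fold change ran from 0.23 to 0.45. The 95% intervals included 0 for all 10 genes and reached past 1 unit of log2(FPKM + 1) for 5 of them, Tgfb1, Tgfbr2, Ltbp1, Ltbp3 and Ltbp4. On this scale 1 unit is more than a 2-fold change in FPKM, most of all for the low genes, so the other intervals are wider in FPKM than their limits read.

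**Figure D1:**
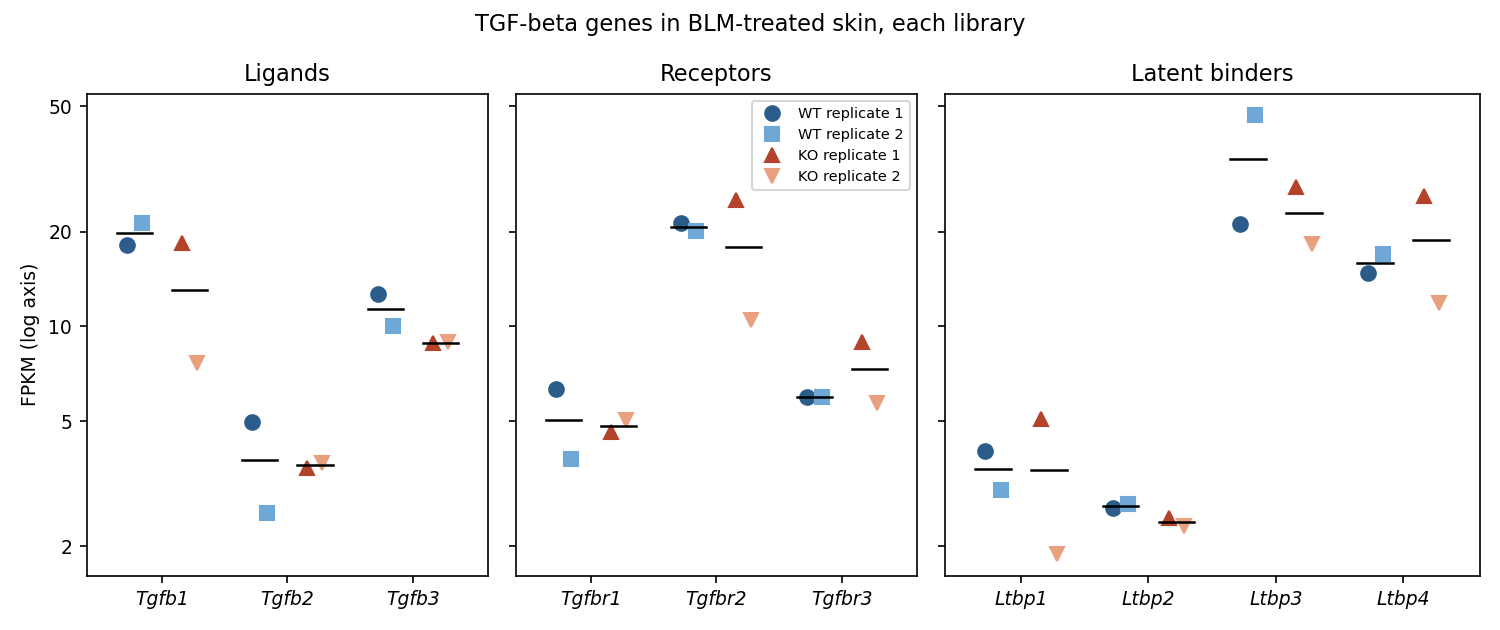
FPKM (log axis) of the 10 TGF-beta genes in each library, with 1 symbol per library and a black bar at the mean of each group of 2. KO replicate 2 lies lowest for Tgfb1, Tgfbr2, Tgfbr3, Ltbp1, Ltbp2, Ltbp3 and Ltbp4. The KO libraries nearly coincide for Tgfb2, Tgfb3, Tgfbr1 and Ltbp2, and WT replicate 2 stands alone at 46.8 FPKM for Ltbp3.

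Among the ligands, Tgfb1 was the most abundant in the WT libraries. Tgfb1, on chromosome 7 of mm9 from 26472021 to 26490096, encodes the isoform most often linked to fibrosis. Levels were 18.2 and 21.3 FPKM in the WT libraries, compared with 18.4 and 7.64 FPKM in KO replicates 1 and 2. KO replicate 1 lay between the WT libraries, and KO replicate 2 lay below all others, so the groups overlapped. The means were 19.7 ± 2.21 FPKM in WT, compared with 13.0 ± 7.57 FPKM in the KO group (SD, n = 2 in each), and the log2 difference was -0.68 (SE 0.43, 95% interval -1.78 to 0.43, adjusted p = 0.435 by limma). The value rested on KO replicate 2: leaving that library out gave -0.09, and leaving out KO replicate 1 gave -1.26. In the latter fit, where KO replicate 2 alone stood against WT and was assumed to vary as the WT pair did, Tgfb1 passed the threshold (adjusted p = 0.0397 by limma), as did 15.8% of all tested genes. The macrophage, fibroblast and endothelial markers given above moved with Tgfb1 in KO replicate 2, and their part in the Tgfb1 value was not tested. Of 5 platelet markers only 1, Pf4, was lowest there, with 9.06 FPKM against 64.7 to 226 FPKM in the other libraries, and it made up most of their summed level of 16.7 FPKM against 77.4 to 235 FPKM. In whole skin, fewer cells of a type and less RNA per cell cannot be told apart.

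Tgfb2, on chromosome 1 from 188446671 to 188529868, encodes the ligand that needs the co-receptor betaglycan to bind well to the type II receptor. It varied more between the WT libraries, with 4.96 and 2.56 FPKM, than between the KO libraries, with 3.54 and 3.68 FPKM. Both KO values lay inside the WT range. Its log2 fold change was 0.00 (SE 0.33, 95% interval -0.84 to 0.84), and it was 0.37 without WT replicate 1 and -0.37 without WT replicate 2.

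Tgfb3, on chromosome 12 from 87397693 to 87419991, is the isoform known for palate fusion and wound repair. Levels were 12.6 and 10.01 FPKM in the WT libraries, compared with 8.84 and 8.91 FPKM in the KO libraries, which agreed closely. The KO values thus did not overlap the WT values, although the gap from 8.91 to 10.01 FPKM was smaller than the gap between the WT libraries. The log2 fold change was -0.31 (SE 0.25, adjusted p = 0.511 by limma) and stayed between -0.46 and -0.16 when each library was left out in turn.

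The make-up of the ligands differed in KO replicate 2. Tgfb1 made up 50.8% and 62.9% of the summed ligand FPKM in the WT libraries, compared with 59.7% in KO replicate 1, but 37.8% in KO replicate 2, where Tgfb3 led with 44.0%. Such shares are free of any scaling between libraries. The KO mean minus the WT mean of the Tgfb1 share was -8.11 percentage points (p = 0.667, exact two-sided permutation test, which cannot go below 0.333 with 2 against 2), and it was 2.87 points without KO replicate 2. The summed ligand FPKM was 35.7 and 33.9 in WT and 30.7 and 20.2 in KO libraries. The ratio of summed ligand to summed receptor FPKM was 1.07 and 1.13 in the WT libraries, compared with 0.792 and 0.952 in the KO libraries. Both the ligand sum and this ratio were lower in both KO libraries. Any quantity whose groups do not overlap gives p = 0.333 in the exact permutation test, so that p adds nothing here. Of all tested genes, 20.5% were likewise lower without overlap. The groups overlapped for the receptor sum, the latent binder sum and the ratio of latent binder sum to ligand sum.

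**Figure D2:**
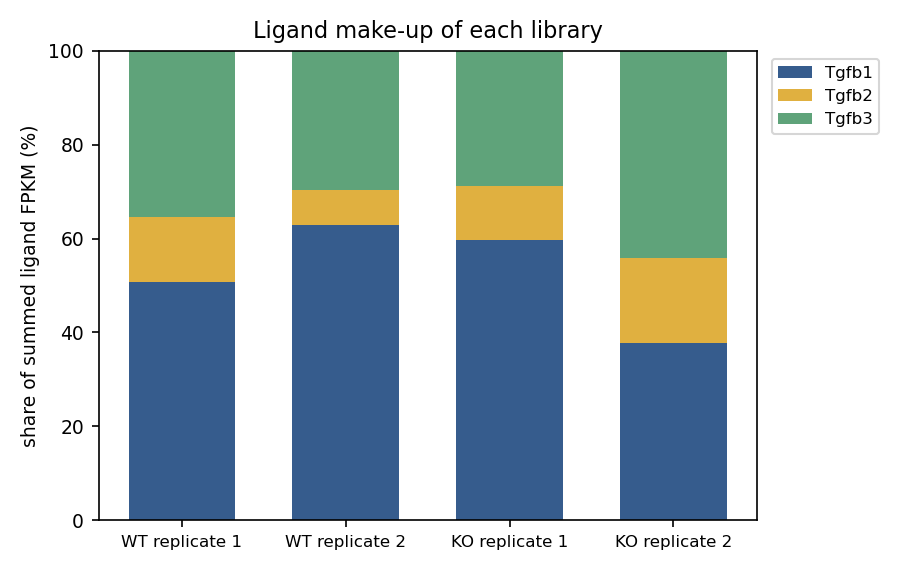
Share (%) of the summed FPKM of Tgfb1, Tgfb2 and Tgfb3 that each ligand gene made up, 1 bar per library. Tgfb1 takes 50.8% to 62.9% in 3 libraries and 37.8% in KO replicate 2.

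Of the receptor genes, Tgfbr2 was the most abundant and the most changeable. Tgfbr2, on chromosome 9 from 115996813 to 116084481, encodes the ligand-binding kinase. Its level was 21.3 and 20.1 FPKM in the WT libraries, compared with 25.3 and 10.5 FPKM in KO replicates 1 and 2, so the KO libraries lay on either side of both WT libraries. The log2 fold change of -0.32 (SE 0.43, adjusted p = 0.697 by limma) moved to 0.28 when KO replicate 2 was left out and to -0.91 when KO replicate 1 was. Its transcript holds stretches of 50 bases that are found in transcripts of other coding genes, and fragments there could have been shared between genes by the authors' counting.

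Tgfbr1, on chromosome 4 from 47366094 to 47427796, encodes the signalling partner kinase. Its level was 6.31 and 3.78 FPKM in the WT libraries, compared with 4.63 and 5.05 FPKM in the KO libraries, and both KO values lay inside the WT range. Genotypes differed by a log2 fold change of -0.02 (SE 0.30, 95% interval -0.79 to 0.75). Tgfbr3, on chromosome 5 from 107535586 to 107718648, encodes betaglycan, the co-receptor that presents ligand. It stood at 5.95 and 5.98 FPKM in the WT libraries, compared with 8.93 and 5.71 FPKM in KO replicates 1 and 2. KO replicate 1 was thus above and KO replicate 2 slightly below a pair of nearly equal WT values. The log2 fold change was 0.23 (SE 0.29, adjusted p = 0.676 by limma), and it was -0.05 without KO replicate 1.

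Latent binders included the gene with the highest mean of the 10 in both groups, Ltbp3. Ltbp3, on chromosome 19 from 5740904 to 5758532, encodes a protein that ties latent TGF-beta to the matrix. There were 21.1 and 46.8 FPKM in the WT libraries, compared with 27.6 and 18.2 FPKM in KO replicates 1 and 2. WT replicate 2 held more than any other library, and WT replicate 1 lay between the KO libraries. The log2 fold change was -0.47 (SE 0.45, adjusted p = 0.582 by limma), -1.03 without WT replicate 1 and 0.09 without WT replicate 2.

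Ltbp4, on chromosome 7 from 28090160 to 28122631, encodes a binder of elastic fibres that carries mainly latent TGF-beta1. Its values were 14.7 and 17.0 FPKM in WT, compared with 25.9 and 11.8 FPKM in KO replicates 1 and 2, with both WT libraries between the KO libraries. For KO against WT, the log2 fold change was 0.14 (SE 0.41, adjusted p = 0.860 by limma), and leaving out KO replicate 2 gave 0.68 and leaving out KO replicate 1 gave -0.39. Ltbp4 made up 34.7% and 24.4% of the summed latent binder FPKM in the WT libraries, compared with 42.4% and 34.5% in the KO libraries (KO mean minus WT mean 8.89 percentage points, p = 0.667, exact two-sided permutation test), and the difference ran from 3.77 to 14.01 points when each library was left out. The lower KO share, in replicate 2, was close to the higher WT share.

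Ltbp1, on chromosome 17 from 75404869 to 75791852, is the founding member of the family. There were 4.01 and 3.01 FPKM in WT, compared with 5.08 and 1.89 FPKM in KO replicates 1 and 2. Again the WT libraries lay between the KO libraries, and the log2 fold change of -0.10 (SE 0.42, adjusted p = 0.915 by limma) turned to 0.44 without KO replicate 2. Ltbp2, on chromosome 12 from 86124162 to 86217445, differs from its relatives in that its protein does not bind latent TGF-beta. It was the lowest of the 10 genes by mean in both groups and the steadiest, with 2.65 and 2.72 FPKM in WT, compared with 2.46 and 2.32 FPKM in KO libraries. Both KO values were below both WT values, and the log2 fold change was -0.12 (SE 0.23, adjusted p = 0.793 by limma), between -0.15 and -0.09 when each library was left out in turn. Exons of Ltbp2 overlap D030025P21Rik on the opposite strand, and since strand use in the counting is not given in the sources used here, the reads of the pair may be mixed.

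**Figure D3:**
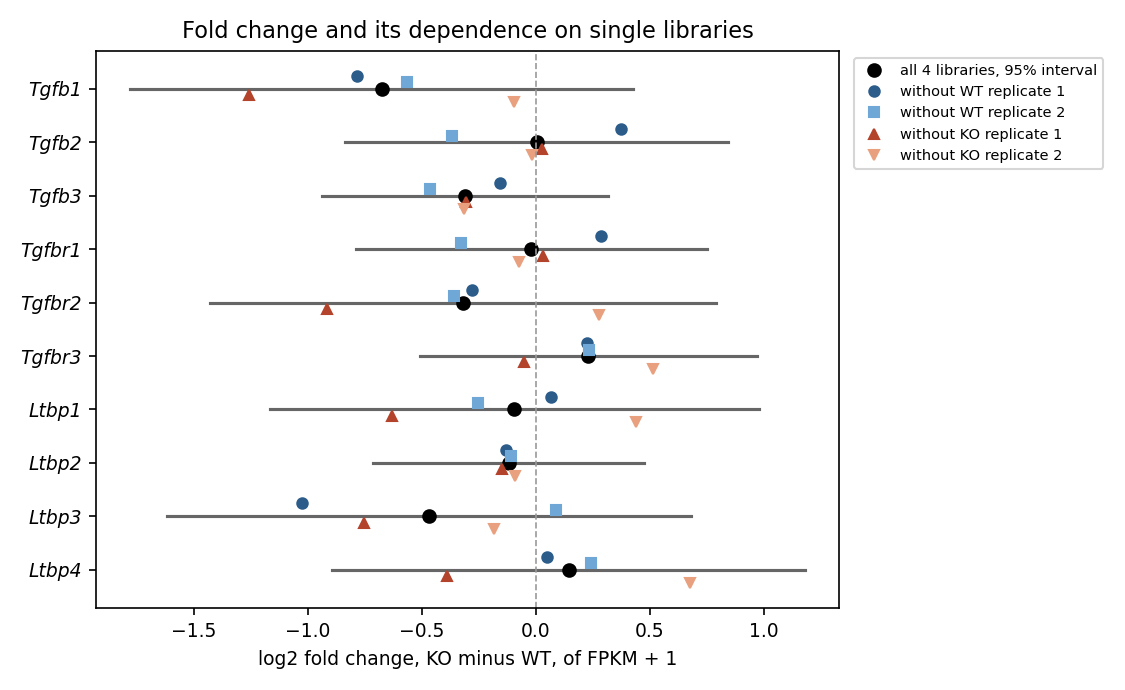
Log2 fold change (KO minus WT) of FPKM + 1 for the 10 TGF-beta genes from limma, with the 95% interval as a grey line, and the value after each library is left out in turn. All 10 intervals include 0, and the values without KO replicate 1 and without KO replicate 2 lie on opposite sides of 0 for Tgfb2, Tgfbr1, Tgfbr2, Tgfbr3, Ltbp1 and Ltbp4.

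Since FPKM is per length, the levels of the genes can be set in order. In the WT libraries the order of the mean FPKM was Ltbp3 (33.9 ± 18.2), Tgfbr2 (20.7 ± 0.799), Tgfb1 (19.7 ± 2.21), Ltbp4 (15.9 ± 1.60), Tgfb3 (11.3 ± 1.86), Tgfbr3 (5.97 ± 0.0212), Tgfbr1 (5.05 ± 1.79), Tgfb2 (3.76 ± 1.70), Ltbp1 (3.51 ± 0.706) and Ltbp2 (2.69 ± 0.0460), each SD over n = 2. Ltbp3, Tgfbr2 and Tgfb1 overlapped their neighbours, as did Tgfbr3, Tgfbr1, Tgfb2 and Ltbp1, whereas the libraries of Tgfb1, Ltbp4 and Tgfb3 each lay apart from those of the next gene, as did those of Ltbp1 from Ltbp2. The KO order had Ltbp4 second (18.9 ± 9.95 FPKM) and Tgfb1 below Tgfbr2 (13.0 ± 7.57 FPKM), and the 6 genes from Ltbp3 down to Tgfbr3 overlapped their neighbours there.

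The 10 genes split by how far the KO libraries lay from each other. KO replicate 1 had at least 2 times the FPKM of KO replicate 2 for 4 of the 10, Ltbp1 (2.68 times), Tgfbr2 (2.40 times), Tgfb1 (2.40 times) and Ltbp4 (2.19 times), against 14.4% of all tested genes. For another 4, Tgfb2, Tgfb3, Tgfbr1 and Ltbp2, the KO libraries were within 1.1 times of each other, against 17.4% of all tested genes. KO replicate 2 was the lowest library for 7 of the 10 (33.3% of all tested genes), and in 4 of the 10 KO replicate 1 was also the highest (7.41% of all tested genes). In KO replicate 2, the members lay nearer to their WT levels than most of the stromal and immune marker lists did. Tgfb1 stood at 38.7% of its WT mean there, Tgfbr2 at 50.8%, Ltbp3 at 53.8%, Ltbp1 at 54.0% and Ltbp4 at 74.6%, while the summed fibroblast markers stood at 13.1%, endothelial markers at 13.5%, macrophage markers at 4.34% and adipocyte markers at 5.56%. Of the 7 adipocyte markers 6 were lowest there, and Pparg, at 33.8 FPKM, lay inside the WT range. The summed T cell markers were at 22.8%, with 6 of 6 genes lowest in KO replicate 2, and the skeletal muscle markers at 63.3%, with 3 of 6. Further sums held members that went opposite ways. Smooth muscle and pericyte markers were at 50.9%, mostly through Des, which skeletal muscle also expresses, and 6 of 8 were lowest in KO replicate 2, whereas Notch3 (6.91 FPKM) was above both WT libraries. Platelet markers were at 7.24%, but 1 of 5 was lowest there. Keratinocyte markers were at 123%: the basal keratin genes Krt5 and Krt14 had 1664 and 2735 FPKM in KO replicate 2, above both WT libraries, while Krt1, Krt10 and Lor, genes of differentiated keratinocytes, were lowest there, with Lor at 155 FPKM against 810 to 2844 FPKM. Sebocyte markers were at 159%, most of it from Scd1 and Mgst1, and Elovl3 had 297 FPKM against 4.64 to 58.3 FPKM in the other libraries. Hair follicle markers were at 347%. In KO replicate 1, the summed fibroblast markers stood at 183% of the WT mean, keratinocyte markers at 252% and hair follicle markers, from their low WT base, at 4917%. The other 8 lists lay between 33.6% and 103%, beside 163% for Ltbp4, 150% for Tgfbr3 and 145% for Ltbp1. The sebocyte sum, at 56.5%, came mostly from Scd1 (474 FPKM, below both WT libraries) and Mgst1 (238 FPKM, inside the WT range). Awat1, Awat2, Elovl3 and Soat1 were above both WT libraries there, with Elovl3 at 58.3 FPKM. Whether the cell make-up of the biopsies sets these levels was not tested.

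**Figure D4:**
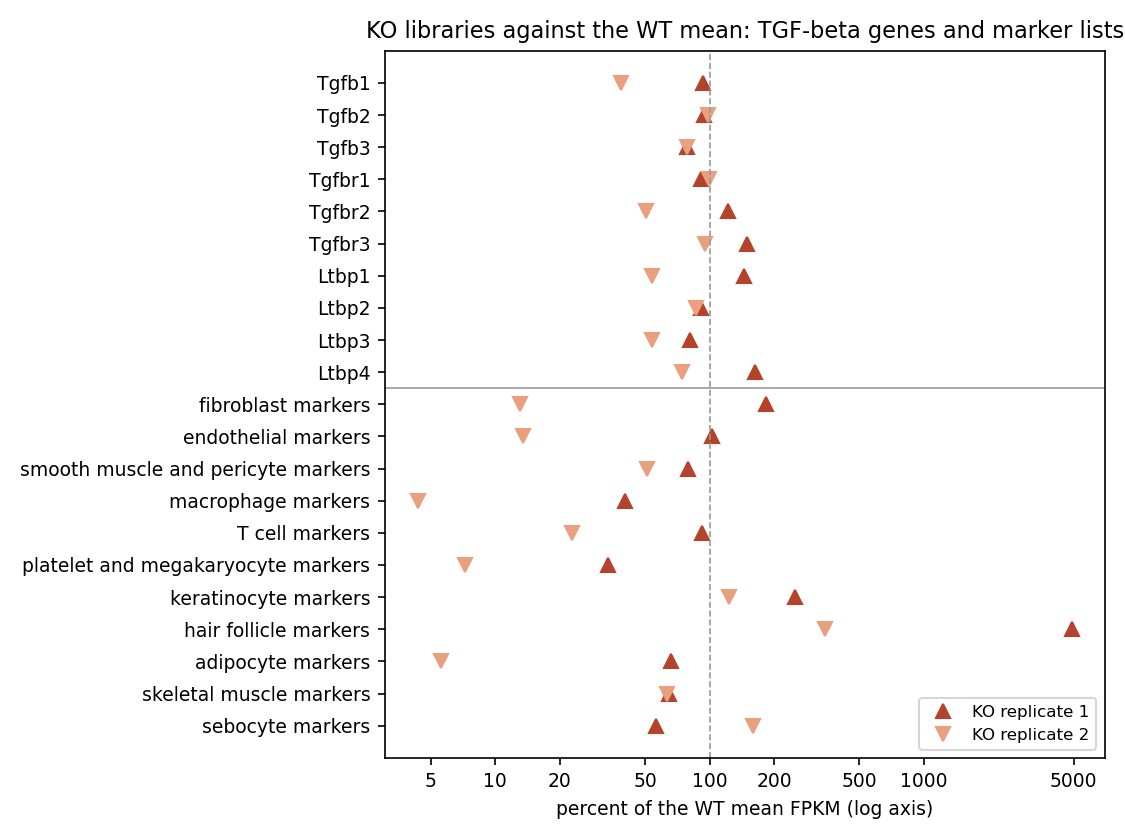
Level of the 10 TGF-beta genes (above the line) and of 11 summed marker lists (below it) in each KO library, as a percentage of the WT mean FPKM on a log axis. In KO replicate 2, Tgfb1 lies at 38.7% and fibroblast markers at 13.1%, whereas Tgfb2 lies at 98.0% and Tgfbr1 at 99.9%.

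Likeness of pattern was measured as the Euclidean distance between centred log2(FPKM + 1) values over the 4 libraries. Within the family, Tgfb2 and Tgfbr1 were nearest to each other (distance 0.10), both highest in WT replicate 1 and lowest in WT replicate 2, and Tgfb1 was nearest to Tgfbr2 (distance 0.41). Among all tested genes, Tgfb1 was closest to Lrrc8c (0.058), Pld3 (0.083) and Srpx2 (0.085), Tgfb2 to Mef2a (0.039), Svip (0.058) and Fetub (0.071), and Tgfb3 to Socs6 (0.049), Igf2bp2 (0.053) and Klhl24 (0.057). With 4 libraries and 13027 genes, some close pairs are present by the number of genes alone.

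Around the members, 61 other genes of the pathway were listed by role, and 55 of them were tested. None passed the adjusted threshold (adjusted p from 0.248 to 0.990 by limma). At an unadjusted p under 0.05, 3 were higher and 3 were lower in KO mice, 5.45% in each direction, against 10.9% and 6.22% of all tested genes. KO replicate 2 was the lowest library for 35 of the 55.

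Genes that activate or hold latent TGF-beta on cells leaned to lower values in KO replicate 2. Of 9 tested, 7 had a negative and 2 a positive log2 fold change, with a median of -0.36, and 1 had an unadjusted p under 0.05. KO replicate 2 was the lowest library for 7 of the 9, and the median was 0.01 without it and -0.64 without KO replicate 1. Itgb1, the integrin beta1 chain, had 62.9 and 52.4 FPKM in WT, compared with 49.0 and 36.5 FPKM in KO libraries, and Furin, the protease that cuts the TGF-beta precursor, had 31.1 and 29.0 FPKM against 27.9 and 19.1 FPKM. Both genes were lower in both KO libraries, as was Itgb5 (25.8 and 29.4 FPKM against 24.4 and 13.6 FPKM). Itgav, named here after its values were seen, was higher in both (4.88 and 2.86 FPKM against 5.92 and 8.33 FPKM). The groups did not overlap for 1 higher gene and 4 lower genes of the 9, against 35.3% and 20.5% of all tested genes. Thbs1, encoding thrombospondin-1, an activator of the latent complex, overlapped between groups with 18.8 and 16.9 FPKM in WT, compared with 18.1 and 9.32 FPKM in KO libraries. The gene under 0.05 was Nrros, which tethers latent TGF-beta1 on myeloid cells and is named here after its values were seen. It had 16.4 and 20.3 FPKM in WT, compared with 8.25 and 1.44 FPKM in KO libraries (log2 fold change -2.02, SE 0.65, adjusted p = 0.258 by limma). Leaving out KO replicate 1 gave -2.98 and leaving out KO replicate 2 gave -1.06. The summed macrophage markers were at 40.1% of the WT mean in KO replicate 1 and 4.34% in KO replicate 2. Their part in the Nrros value was not tested.

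Matrix genes that scaffold the latent complex had a median log2 fold change of -0.98, and 8 of 9 tested were negative. KO replicate 2 was the lowest library for 9 of the 9, and without it the median was 0.39. Fn1, encoding fibronectin, had 91.5 and 84.9 FPKM in WT, compared with 20.6 and 1.09 FPKM in KO replicates 1 and 2, and was the only one with an unadjusted p under 0.05 (log2 fold change -3.73, SE 1.08, adjusted p = 0.248 by limma). Leaving out KO replicate 1 gave -5.41 and leaving out KO replicate 2 gave -2.05. The summed macrophage markers were at 40.1% of the WT mean in KO replicate 1 and 4.34% in KO replicate 2. Platelet markers, mostly Pf4, were at 33.6% and 7.24%, whereas fibroblast markers were at 183% and 13.1%. The part of any cell type in the Fn1 value was not tested. Fn1 exons overlap Apol7d on the opposite strand. Mfap5, a microfibril protein gene, had 27.1 and 16.2 FPKM in WT, compared with 27.0 and 0.744 FPKM in KO replicates 1 and 2, so KO replicate 1 was level with WT. Efemp1, encoding a fibulin, had 11.7 and 12.6 FPKM in WT, compared with 18.9 FPKM in KO replicate 1, above both, and 3.58 FPKM in KO replicate 2, below both. Its relative Efemp2 had 9.55 and 20.3 FPKM in WT, compared with 14.2 and 2.81 FPKM in KO replicates 1 and 2. Among the 4 proteoglycans that bind TGF-beta, 2 were higher and 2 lower, and none was under an unadjusted p of 0.05. Decorin (Dcn) ranged from 152.9 FPKM in KO replicate 1 to 9.89 FPKM in KO replicate 2, around 97.5 and 39.998 FPKM in WT, and biglycan (Bgn) was at 90.7 and 87.3 FPKM in WT, 89.4 FPKM in KO replicate 1 and 8.55 FPKM in KO replicate 2. Asporin (Aspn) had 5.96 and 1.73 FPKM against 9.09 and 4.85 FPKM, and fibromodulin (Fmod) stayed at or below 3.54 FPKM.

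Co-receptors and receptor modulators had a median log2 fold change of -0.01, with 3 of 7 tested positive, and the median was 0.01 without either KO library. Cd109, which encodes a membrane protein that dampens TGF-beta signalling in keratinocytes, had 8.59 and 4.64 FPKM in WT, compared with 12.03 and 22.8 FPKM in KO libraries (log2 fold change 1.26, SE 0.43, adjusted p = 0.264 by limma, unadjusted p = 0.0311). Leaving out KO replicate 1 gave 1.70 and leaving out KO replicate 2 gave 0.82. Both KO libraries were above both WT libraries. In this list the groups did not overlap for 2 higher genes and 1 lower gene of the 7, against 35.3% and 20.5% of all tested genes. Keratinocyte markers summed to 5029 and 3582 FPKM in WT against 10833 and 5280 FPKM in KO libraries, although 3 of the 9 (Krt1, Krt10 and Lor) were lowest in KO replicate 2, and their part in the Cd109 value was not tested. Endoglin (Eng), a co-receptor of endothelium, had 15.5 and 24.9 FPKM in WT, compared with 19.8 and 2.73 FPKM in KO replicates 1 and 2. The endothelial markers moved with it, and the part of these markers in the Eng value was not tested. Pmepa1, a feedback inhibitor, had 9.33 and 9.67 FPKM against 14.3 and 4.78 FPKM. Strap, which encodes a receptor-associated protein, was higher in both KO libraries (43.4 and 56.2 FPKM against 38.7 and 26.7 FPKM, adjusted p = 0.349 by limma). Exons of Eng overlap Ak1 and Fpgs.

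The median of the Smad pathway genes lay close to that of all tested genes. The 14 tested had log2 fold changes from -0.34 (Smad3) to 0.72 (Tgif1) with a median of 0.12, near the 0.11 of all tested genes. Of the 14, 12 were positive, and with median-ratio scaling 8 were positive and the median was 0.03. The groups did not overlap for 5 higher genes and 1 lower gene of the 14, against 35.3% and 20.5% of all tested genes. Tgif1, a corepressor of Smad-driven transcription, had 13.5 and 9.73 FPKM in WT, compared with 18.0 and 21.2 FPKM in KO libraries (log2 fold change 0.72, SE 0.27, adjusted p = 0.284 by limma, unadjusted p = 0.0444). Smad1 had 9.89 and 7.63 FPKM against 12.4 and 17.9 FPKM, and Smad5 had 9.89 and 9.45 FPKM against 11.8 and 12.4 FPKM. These encode Smads best known from BMP signalling, and both were higher in both KO libraries. Smad2 and Smad3, the Smads that TGF-beta receptors phosphorylate, are outside the naming rule and were chosen after their values were seen. Smad2 had 3.04 and 2.83 FPKM in WT, compared with 3.65 and 4.67 FPKM in KO libraries, and Smad3 had 9.55 and 8.36 FPKM, compared with 7.49 and 6.24 FPKM, so each was apart between groups, in opposite directions, without passing the test (adjusted p = 0.439 and 0.475 by limma). Ski, a repressor of Smad complexes, had 20.5 and 17.3 FPKM in WT, compared with 20.5 and 18.0 FPKM in KO libraries.

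Genes known to respond to TGF-beta did not move one way. Of 16 tested, 11 had a negative and 5 a positive log2 fold change, with a median of -0.34, and 1 in each direction had an unadjusted p under 0.05. Postn, which encodes periostin, a matrix protein made by fibroblasts and other cells, was the higher of these, with 58.6 and 30.9 FPKM in WT, compared with 106.3 and 175.2 FPKM in KO libraries (log2 fold change 1.66, SE 0.42, adjusted p = 0.248 by limma). Both KO libraries were above both WT libraries in Postn, and KO replicate 2, where fibroblast markers were lowest, held the most. Tgfbi, named for its induction by TGF-beta, had 83.8 and 111.1 FPKM against 84.7 and 84.0 FPKM. Col3a1, a fibrillar collagen gene, split the KO libraries, with 72.4 and 60.9 FPKM in WT, 114.2 FPKM in KO replicate 1 and 6.45 FPKM in KO replicate 2. Tagln, a gene of contractile cells, had 44.7 and 58.7 FPKM in WT, compared with 55.9 and 16.03 FPKM in KO libraries, and its exons overlap Pcsk7 on the opposite strand. Leaving out KO replicate 2 gave a median of 0.31 for the list, and leaving out KO replicate 1 gave -1.12.

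**Figure D5:**
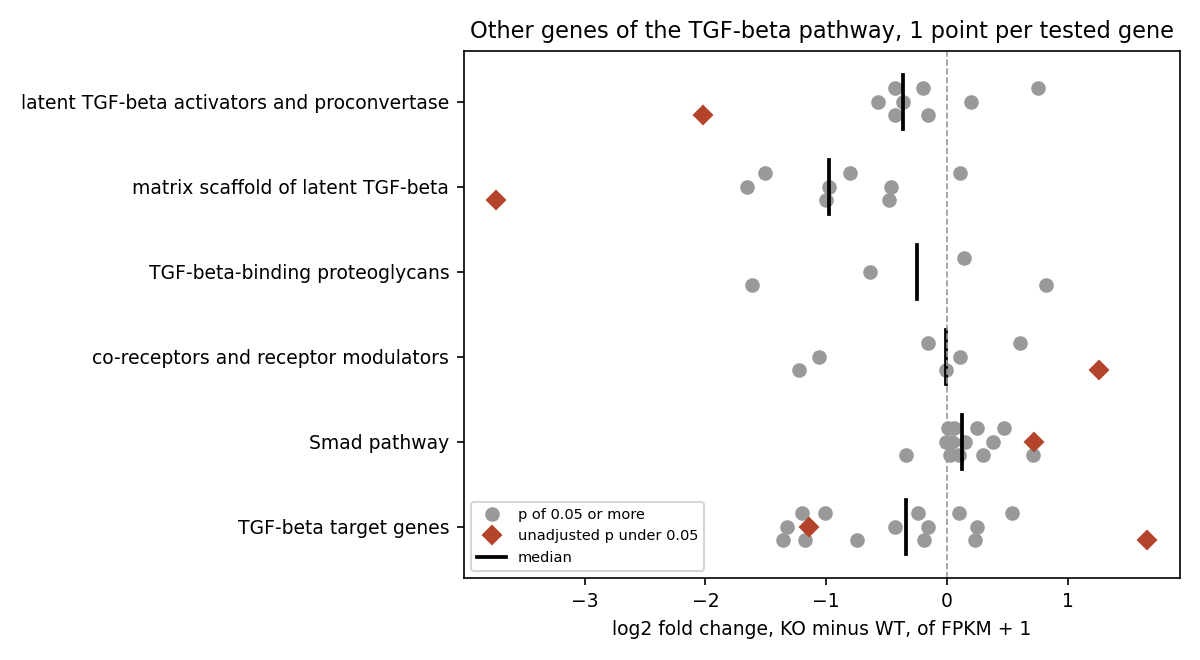
Log2 fold change (KO minus WT) of FPKM + 1 for each tested gene of 6 lists around the members, with red diamonds for an unadjusted p under 0.05 and a black bar at the list's median. The 14 Smad pathway genes lie between -0.34 and 0.72, and the 9 matrix scaffold genes reach down to -3.73.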

How the data were processed

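RNA of BLM-treated skin was measured in 4 libraries, with genotype and replicate number taken from the sample titles. Per the methods and the submitters' processing notes, reads were aligned to mm9 by the authors, using HISAT2 (version 2.0.1), featureCounts is named for read counts, and StringTie version 2.0.6 is listed without a role, so the program behind the values is not certain. The deposited table is named as counts but holds FPKM: 99.993% of its values above 0 are not whole. FPKM values were transformed to log2(FPKM + 1), which understates changes of low genes. The 13027 genes that reached 1 FPKM in 2 or more libraries entered a limma fit (version 3.58.1, R version 4.3.3) with the term genotype, a mean-variance trend and Benjamini-Hochberg adjustment. A count model was not used. The fit was tested on simulated data.

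Depth was estimated from 2710 genes having 1 annotated transcript, 2000 bases or longer: 1 fragment on 1 kb was worth 0.0573 to 0.0781 FPKM, and 78.2% to 79.7% of the low values lay within 0.15 of a whole number of fragments. These depths are approximate, and counting error is the only error they cover.

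The 10 members and all lists were chosen with earlier results of these data known. Named in the text are the members, Gsdmd, the 4 genes of highest mean FPKM in each pathway list, the 3 nearest profiles of each ligand, cell type markers beside a result, where single markers were picked after their values were seen, and the genes marked as chosen by their values. Some results on other genes are not reported here. WT and KO libraries that share a number were not treated as pairs: their deviations correlated at -0.20, and the labels tie the numbers to no litter, batch or day. Alternatives were 2 other scalings, 2 pseudocounts, 2 filters, no trend, the replicate number as a block, and leaving out each library. Tables used Python (version 3.11.15) with pandas (version 2.3.3).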

Additional observations from a re-analysis of the deposited data

How the results depend on the processing

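With 2 libraries a group, calls rest on single mice. The main fit called 0% of the 13027 tested genes, Gsdmd among them, so an unchanged count of 0 among the members does not measure stability. The 0 calls among the 10 genes held under every alternative except without KO replicate 1, where 1 (Tgfb1) was called. With each library left out in turn, the counts of members ran from 0 to 1 for calls, from 0 to 2 for an unadjusted p under 0.05 and lower in KO, from 0 to 4 for groups that did not overlap and were higher, and from 2 to 8 for those lower. Over all tested genes, 41.8% to 50.3% were then higher and 26.6% to 37% lower without overlap, and the 8 were found without KO replicate 1, at 37%. For the other pathway genes the ranges were 0 to 22 calls, 0 to 8 higher and 0 to 26 lower at an unadjusted p under 0.05, of 55 tested. The 22 calls, the 26 lower pathway genes and the 2 lower members were found without KO replicate 1, where 15.8% of all tested genes were called and 15.7% were lower at that p, and the 8 higher without KO replicate 2, where 8.67% were higher. The KO minus WT difference in the Tgfb1 share of the ligands ran from -19.1 to 2.87 percentage points. Log2 fold changes that changed sign when a library was left out ran from -0.37 to 0.37 for Tgfb2, -0.33 to 0.29 for Tgfbr1, -0.91 to 0.28 for Tgfbr2, -0.054 to 0.51 for Tgfbr3, -0.63 to 0.44 for Ltbp1, -1.03 to 0.089 for Ltbp3 and -0.39 to 0.68 for Ltbp4. A lone library was assumed there to vary as the other group did. Median-ratio factors moved the median of all tested genes from 0.11 to 0.01, and Tgfb2 turned to -0.089 with them and to -0.12 with upper-quartile scaling, where Ltbp4 turned to -0.0079. With at least 5 FPKM required, 7 members were tested, with a median of -0.31, and 1 did not overlap and was lower, against 21.9% of the genes that pass this filter. With the replicate number as a block, 0 members were called, and 7 other pathway genes were lower at an unadjusted p under 0.05, against 3 without the block, where all tested genes gave 6.39% with it and 6.22% without. With crossed numbers, added after the data were seen, 0 members were called and 6 pathway genes were higher and 6 lower at that p, against 14.6% and 8.8% of all tested genes. The cause of these shifts was not tested.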
